A study of Homo sapiens with 50 samples.

Results

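Proteasome subunit genes were followed in H1 cells, an established human embryonic stem cell line, before and during differentiation under acid, base and WNT inhibitor treatments. Genes were taken by symbol: PSM, one letter from A to D, then digits only, which leaves out pseudogenes. The rule found 41 of the 57905 gene rows in each deposited table. They carry 39 gene symbols, because PSMA1 and PSMA2 each have a second row, which held 0 or nearly 0 reads. By role there were 7 alpha ring genes, 7 constitutive beta ring genes, 3 immunoproteasome genes, 2 tissue-limited genes, 6 ATPase genes, 11 non-ATPase genes of the regulatory particle and 3 assembly chaperones. The 31 alpha, constitutive beta, ATPase and non-ATPase genes are called the constitutive 26S subunits here.

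The 50 libraries formed 25 groups of 2. All cells were H1, labelled wild type. Cultures sampled on days 3, 5, 7 and 11 of differentiation were labelled as given IWP2 with NaHCO3 and 2-DG, IWP2 with NaHCO3, IWP2 alone, HCl, NaHCO3, or none of these (the control). Undifferentiated cells of day 0 completed the set. HCl is an acid, NaHCO3 a base, IWP2 a blocker of WNT secretion and 2-DG (2-deoxyglucose) a glucose analogue that inhibits glycolysis. Doses, times of addition and culture pH are not given in the sources used here. The study asked how a shift in pH bears on heart muscle differentiation, by its title. Each group is 1 line and 2 libraries, and nothing says whether these were separate cultures, so p-values measure only the spread between these libraries.

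The proteasome breaks down proteins tagged with ubiquitin. Its 20S core is a barrel of alpha rings around beta rings, and PSMB5, PSMB6 and PSMB7 carry the cutting sites. The 19S regulatory particle, with an ATPase ring (PSMC genes) and a non-ATPase part (PSMD genes), binds tagged proteins, removes the tag and unfolds the protein. Interferon can replace the cutting subunits with PSMB8, PSMB9 and PSMB10, which changes the peptides made for presentation. In many cell types the factor NFE2L1 raises subunit genes together when proteasome capacity falls short, and pluripotent stem cells are known for high proteasome activity, linked to PSMD11.

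Library totals ran between 14794134 and 22796553 counts on days 3 and 5, and between 14090004 and 20445875 on days 0, 7 and 11. The constitutive 26S genes took between 0.253% and 0.570% of a library's counts. Pluripotency markers summed to 37.1 and 40.4 FPKM (fragments per kilobase, scaled to library size) in the day 11 control, against 1831 and 1845 FPKM in undifferentiated cells. The 2 libraries with 2-DG of day 3 lay far apart, with a Spearman correlation of 0.958 over genes, against 0.989 or more between the libraries of every other group. All libraries of days 3 and 5 share 1 estimate of spread, and counts without these 2 are given beside the results of those days. A gene was called where the adjusted p of edgeR's quasi-likelihood test was under 0.05, with no minimum fold. Of the members, 36 passed the filter of at least 1 FPKM in at least 2 libraries of a table. PSMB9, PSMA8 and PSMB11 and both second rows did not. In bulk RNA, fewer cells of a type and less RNA per cell cannot be told apart.

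Constitutive subunits were expressed in every library. Over the 50 libraries PSMA7, an alpha ring subunit, had the highest mean at 101 FPKM, and PSMB11, the thymus-specific beta subunit, the lowest at 0.004 FPKM. Summed over the 31 constitutive 26S genes, the level was 1441 and 1510 FPKM in undifferentiated cells. In control cultures it was 1376 and 1408 on day 3, 1095 and 1066 on day 5, 1079 and 1089 on day 7, and 922 and 981 on day 11. Each later day lay below day 3 in both libraries, and day 11 below day 7. Days 3 and 5 lie in a deposited table apart from days 0, 7 and 11, so between these day and table cannot be told apart. PSMA8, the testis alpha subunit, had at most 3 counts in a library and PSMB11 at most 2.

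**Figure D1:**
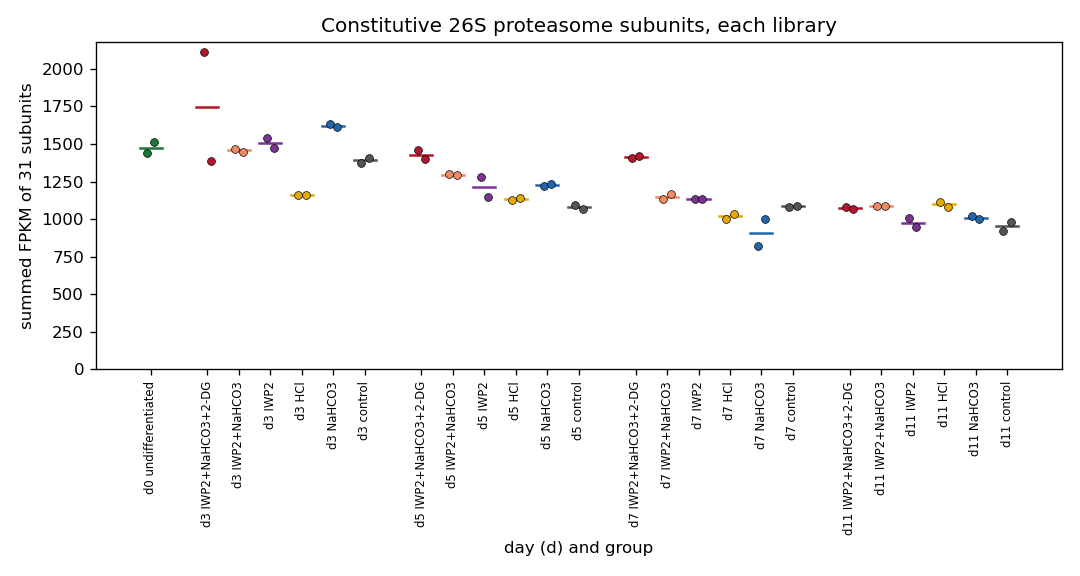
Summed FPKM of the 31 constitutive 26S subunit genes (y axis) in each library (points) by day and group (x axis), with the group mean as a line. Both libraries with 2-DG of day 7, at 1404 and 1418 FPKM, lie above the other groups of that day, and those of day 3, at 2112 and 1387, lie far apart.

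Nearly all subunits were lower in the day 7 control than in undifferentiated cells. In the control of day 7 against undifferentiated cells, 32 of 36 members (88.9%) were called lower and 1 (2.78%) higher, where 34.4% and 33.2% of all tested genes were called lower and higher. The median change of the members was -0.57 on the log2 scale, against 0.00 over all genes. PSMD11, singled out after its values were seen for its link to stem cell proteasome activity, had 15.1 and 15.5 FPKM in the day 7 control, against 26.2 and 25.9 FPKM in undifferentiated cells. Its log2 fold change was -0.94 ± 0.06 (SE, n = 2 each, adjusted p = 3.9e-14). PSMD1, a scaffold of the 19S base, had 27.6 and 27.7 FPKM against 52.2 and 57.3 FPKM in undifferentiated cells, a change of -1.15 ± 0.07. PSMA3, of the alpha ring, had 30.4 and 29.7 FPKM in the day 7 control, against 52.6 and 55.6 FPKM in undifferentiated cells. Libraries of the groups did not overlap for any of these genes. Levels in the day 3 control did not lie below undifferentiated cells for every subunit. In the day 3 control PSMB5 had 118.65 and 121.97 FPKM, above its 74.48 and 73.75 FPKM in undifferentiated cells. PSMD11 had 15.68 and 16.56 FPKM in the day 3 control, below undifferentiated cells. Days 3 and 0 were not tested against each other. They lie in different deposited tables, so a difference of day cannot be told apart from one of table.

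The chymotrypsin-like PSMB5 fell by 0.52 on the log2 scale and the caspase-like PSMB6 fell by 0.71, while the trypsin-like PSMB7 was not called, at 65.1 and 66.7 FPKM in the day 7 control and 61.3 and 65.9 FPKM in undifferentiated cells. The member that rose was PSMD9, a chaperone of 19S base assembly, at 1.79 and 2.18 FPKM in the day 7 control and 1.01 and 0.84 FPKM in undifferentiated cells. Mitotic markers (6 of 6 measured) summed to 183 and 183 FPKM in the day 7 control, against 483 and 508 FPKM in undifferentiated cells, and their part in the result was not tested.

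In IWP2 cultures of day 7 against undifferentiated cells, 27 members (75%) were called lower and 3 higher, against 33.7% and 35.2% of all genes. The 3 that rose were PSMB10, PSMD9 and PSMD10, an immunoproteasome subunit and 2 assembly chaperones. This comparison shares its undifferentiated libraries with the previous one. Within the differentiating cultures, 13 members were called lower and 0 higher in the control of day 5 against day 3 (18.1% and 20.4% of all genes), with PSMD14, the deubiquitinating subunit, at 6.50 and 6.46 FPKM on day 5 and 11.5 and 11.4 FPKM on day 3. Without both 2-DG libraries of day 3 the count was 25, and leaving out 1 library gave counts between 5 and 9, the lowest without the second control library of day 3. From day 7 to day 11, 7 members were called lower and 1 higher in the control (15.6% and 19.7% of all genes), and 17 lower and 0 higher with IWP2 (15.4% and 16.3%). The control count of 8 was 1 without the first control library of day 11 and 5 without the first of day 7.

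Addition of 2-DG to IWP2 and NaHCO3 gave the widest rise, on day 7. There 33 of 36 members (91.7%) were called higher and 0 lower with 2-DG, against 25% and 22.7% of all genes, and the median change was 0.37 on the log2 scale. All 7 alpha ring, 7 beta ring, 6 ATPase and 11 non-ATPase genes were among them. The summed constitutive level was 1404 and 1418 FPKM with 2-DG and 1131 and 1168 FPKM without it. PSMB6 had 94.7 and 87.7 FPKM with 2-DG and 60.7 and 66.8 FPKM without, a log2 fold change of 0.59 ± 0.09 (SE, n = 2 each, adjusted p = 1.41e-06). PSMD7, the partner of the deubiquitinating subunit, had 60.8 and 67.9 FPKM with 2-DG and 44.0 and 47.4 FPKM without. PSMB5 had 82.2 and 82.7 FPKM with 2-DG and 64.7 and 64.0 FPKM without. The groups did not overlap for any of these genes.

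The members not called were PSMB8, PSMD5 and PSMD9. PSMB10 had the largest rise, at 2.47 and 2.55 FPKM with 2-DG and 1.32 and 1.34 FPKM without (1.00 ± 0.28). Its counts were few, 78 and 90 with 2-DG and 49 and 44 without. With IWP2 alone on day 7 PSMB10 had 3.03 and 2.09 FPKM. Leaving out 1 library kept the count between 26 and 30. Heart muscle markers (8 of 8 called higher) summed to 3833 and 3768 FPKM with 2-DG and 568 and 621 FPKM without, mitotic markers to 239 and 253 FPKM with 2-DG and 141 and 150 FPKM without, and their part in the rise was not tested.

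**Figure D2:**
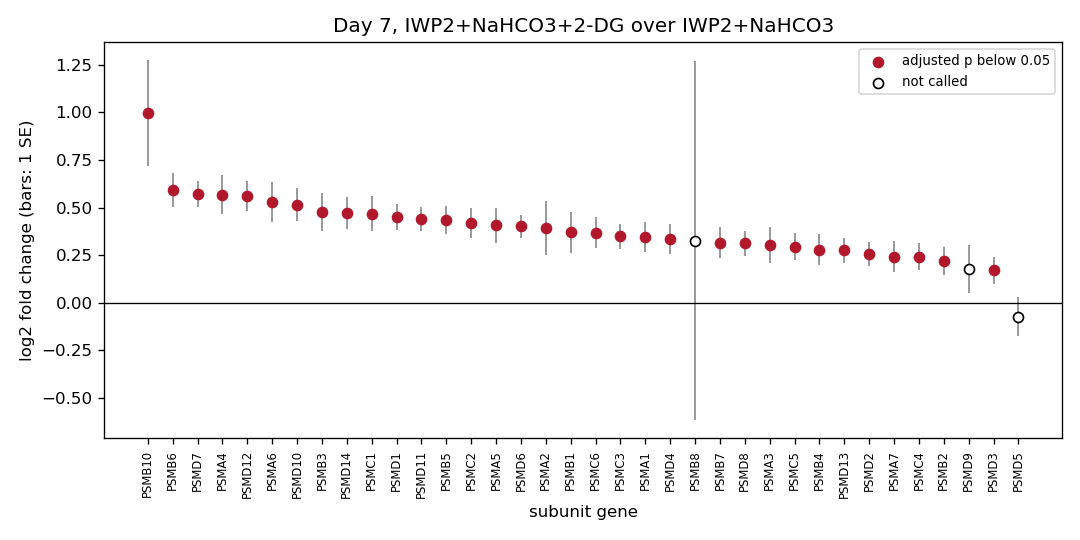
Log2 fold change (y axis, bars 1 SE) of each tested subunit gene (x axis, ordered by size) for IWP2+NaHCO3+2-DG over IWP2+NaHCO3 on day 7, with called genes filled. The called genes run between 0.17 (PSMD3) and 1.00 (PSMB10), and the only open points are PSMB8, PSMD5 and PSMD9.

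On other days the 2-DG comparison called fewer members. On day 5, 14 were called higher and 0 lower (20% and 19.6% of all genes). PSMD11 had 19.6 and 21.1 FPKM with 2-DG and 14.3 and 14.1 FPKM without, a log2 fold change of 0.69 ± 0.09, and PSMC4, an ATPase, had 49.5 and 49.2 FPKM with 2-DG and 36.4 and 37.6 FPKM without. The count was 23 without both 2-DG libraries of day 3, 22 higher and 1 lower. Leaving out 1 of the compared libraries gave counts between 6 and 9, reached without the second IWP2 with NaHCO3 library and without the second 2-DG library. On day 11, 6 were called higher and 6 lower (24.9% and 26.8%). PSMD2 and PSMD7 were among the higher, PSMD5 and PSMD10 among the lower. That count was 5 without the second IWP2 with NaHCO3 library of day 11 and 7 without the first.

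The day 3 result rests on 1 library. There 9 members were called higher and 0 lower with 2-DG (9.49% and 7.39% of all genes). PSMB5 had 200 and 125 FPKM in the 2 libraries with 2-DG, against 120 and 124 FPKM without it, so only the first lay above. Without that first library 0 members were called, and without the second 29 were called higher. Leaving out the first or second library without 2-DG gave counts of 1 and 0.

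The HCl effect on the subunits differed between days. On day 3, 10 members (27.8%) were called lower and 1 higher with HCl, against 14.2% and 15.8% of all genes. PSMC3, an ATPase, had 41.7 and 47.3 FPKM with HCl and 73.7 and 76.1 FPKM in the control. The log2 change of PSMC3 was -0.67 ± 0.14 (SE, n = 2 each, adjusted p = 0.00108). PSMC2, another ATPase, had 13.7 and 14.5 FPKM with HCl and 21.8 and 22.7 FPKM in the control. PSMD1 had 18.6 and 19.9 FPKM with HCl and 27.6 and 31.5 FPKM in the control. Libraries of the groups did not overlap for these genes, and the cutting subunits PSMB5, PSMB6 and PSMB7 were not called. The count of 11 was 20 without both 2-DG libraries of day 3 (1 higher, 19 lower) and 4 or 5 when 1 of the 4 compared libraries was left out. Mitotic markers summed to 140 and 120 FPKM with HCl and 322 and 314 FPKM in the control, and pluripotency markers to 696 and 813 FPKM with HCl and 416 and 479 FPKM in the control, and their part was not tested.

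On day 11 the subunits were higher with HCl. There 23 members (63.9%) were called higher and 0 lower, against 25.3% and 27.4% of all genes. PSMA6, of the alpha ring, had 7.08 and 6.37 FPKM with HCl and 4.56 and 4.94 FPKM in the control (0.59 ± 0.11). PSMA6 overlaps KIAA0391 and AL121594.1 on the same strand, and the part of shared reads in its values was not tested. PSMB3, of the beta ring, had 73.8 and 79.3 FPKM with HCl and 51.5 and 57.0 FPKM in the control (0.58 ± 0.10). PSMC6, an ATPase, had 17.1 and 16.6 FPKM with HCl and 12.1 and 12.4 FPKM in the control (0.54 ± 0.08). Of the cutting subunits PSMB6 was called higher and PSMB5 and PSMB7 were not. Heart muscle markers summed to 5764 and 5844 FPKM with HCl and 589 and 821 FPKM in the control, and their part in the rise was not tested.

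On day 5, 6 members were called higher with HCl and 0 lower (20.7% and 21.2% of all genes), among them PSMB8, PSMA6 and PSMD14. Without both 2-DG libraries of day 3 this was 15, 14 higher and 1 lower. On day 7, 3 were called higher and 3 lower (23.1% and 20%), PSMB8, PSMD10 and PSMD13 higher and PSMA7, PSMC3 and PSMD9 lower. The day 7 count of 6 was 2 without the second control library. The day 7 calls of PSMD10, PSMC3 and PSMD9 were each lost in 3 of 9 alternative fits, and that of PSMD13 in 4. The difference of the HCl effect between days was tested as an interaction. The effect was higher on day 5 than on day 3 for 10 members and lower for 0 (14% and 13.8% of all genes), PSMD1 with a difference of 0.79 ± 0.13 on the log2 scale. That count was 23 without both 2-DG libraries of day 3 and 6 without the first HCl library of day 3, the second control library of day 3 or the first control library of day 5. The effect was higher on day 11 than on day 7 for 18 members and lower for 1 (19.4% and 21.9%). PSMD6 had a difference of 0.49 ± 0.09, and the lower member was PSMB8, which passed the filter only through HCl on day 7 and undifferentiated cells and had 0 and 3 counts with HCl on day 11.

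**Figure D3:**
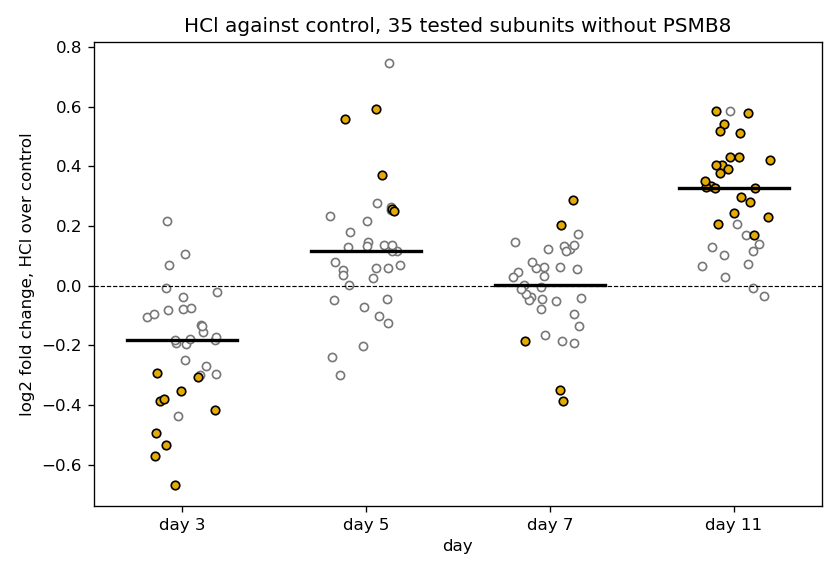
Log2 fold change of HCl over control (y axis) for the 35 tested subunit genes other than PSMB8 (points, filled where called) on each day (x axis), with the median as a line. Called points lie below 0 on day 3 and above 0 on day 11, where 23 are called.

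In the comparisons of NaHCO3 alone with the control, the direction of the calls varied by day. A difference of the NaHCO3 effect between days was not tested. These comparisons share their control libraries with those of HCl and IWP2. On day 3, 6 members were called higher and 0 lower with NaHCO3 (6.75% and 5.55% of all genes), all in the 19S particle. PSMC4 had 42.4 and 42.5 FPKM with NaHCO3 and 30.9 and 32.5 FPKM in the control (0.48 ± 0.13, adjusted p = 0.0212), a call lost in 5 of 10 alternatives, where the adjusted p ran between 1.15e-05 and 0.15. Fitted on day 3 alone the count of members was 0. It was 23, all higher, without both 2-DG libraries of day 3, and 1 or 2 when 1 compared library was left out, the 1 member being lower without the first control library. On day 5, 3 were called higher and 0 lower (7.72% and 8.1%), PSMB8, PSMD1 and PSMD2. That count was 21 without both 2-DG libraries of day 3, 0 without the first control library of day 5, and 1 without the second control or the second NaHCO3 library.

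On day 7, 12 members were called lower and 2 higher with NaHCO3 (20% and 20.3% of all genes). PSMB2, of the beta ring, was the most lowered of them (-0.42 ± 0.08) and PSMD11 had 11.7 and 10.9 FPKM with NaHCO3, against 15.1 and 15.5 FPKM in the control. The 2 NaHCO3 libraries differed, with constitutive sums of 818 and 999 FPKM against 1079 and 1089 FPKM in the control. Without the first NaHCO3 library 7 members were called, 4 higher and 3 lower. Without the second, 22 were called, and without the first control library 8 and without the second 9. On day 11, 19 were called higher and 4 lower (26% and 26.5%). PSMC6 had 16.5 and 16.4 FPKM with NaHCO3 and 12.1 and 12.4 FPKM in the control (0.63 ± 0.08), and PSMB4, of the beta ring, 102 and 98.5 FPKM with NaHCO3 and 71.5 and 76.7 FPKM in the control (0.63 ± 0.08). The 4 that fell were PSMD11, PSMD14, PSMC4 and PSMB2. PSMD11 had 8.10 and 7.65 FPKM with NaHCO3 and 12.0 and 12.2 FPKM in the control (-0.42 ± 0.07). The log2 changes are scaled by edgeR's size factors (TMM) and FPKM only by library total, so they can differ. By share of all counts the constitutive 26S genes overlapped on day 11, at 0.2951% and 0.2892% with NaHCO3 and 0.2773% and 0.2933% in the control. Heart muscle markers summed to 75.3 and 77.5 FPKM with NaHCO3 and 589 and 821 FPKM in the control, stroma markers to 6343 and 6484 FPKM with NaHCO3 and 2909 and 2912 FPKM in the control, and their part was not tested.

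IWP2 called no member on the early days by edgeR. On day 3, 0 were called higher and 0 lower (0.347% and 0.821% of all genes), with 0 at an unadjusted p under 0.05, 0 by DESeq2 and 2 without both 2-DG libraries of day 3. On day 5, 0 and 0 were called (6.25% and 9.07%), with 9 at an unadjusted p under 0.05 (8 higher, 1 lower), 3 by DESeq2 and 17 without both 2-DG libraries of day 3 (16 higher, 1 lower). On day 7, 14 were called higher and 0 lower with IWP2 (23.3% and 24.1%). PSMD10 had 32.9 and 31.1 FPKM with IWP2 and 24.1 and 24.2 FPKM in the control (0.50 ± 0.09), and PSMA6 7.25 and 7.21 FPKM with IWP2 and 5.41 and 5.92 FPKM in the control. That count was 9 without the first control library and 8 without the second. On day 11, 9 were called higher and 2 lower (22.1% and 23.3%), PSMC6 highest (0.51 ± 0.08) and PSMC4 lowest, at 17.2 and 17.5 FPKM with IWP2 and 23.4 and 22.9 FPKM in the control (-0.39 ± 0.08). The count of 11 was 6 without the first control library or the second IWP2 library, and 7 without the first IWP2 library. The interaction called 0 members higher and 0 lower between days 5 and 3 (2.99% and 4.22% of all genes), and 0 higher and 1 lower, PSMC4, between days 11 and 7 (5.41% and 9.98%). For the first of these 1 was higher and 1 lower at an unadjusted p under 0.05, DESeq2 called 0, and the count was 2 without both 2-DG libraries of day 3 and 1 without the second control library of day 3. Heart muscle markers summed to 6171 and 5661 FPKM with IWP2 on day 7, against 414 and 471 FPKM in the control, and their part was not tested.

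NaHCO3 added to IWP2 called 0 members higher and 0 lower on day 3 (4.99% and 3.59% of all genes), with 6 without both 2-DG libraries of day 3. It called 0 and 0 on day 5 (7.24% and 5.76%), with 7 likewise. At an unadjusted p under 0.05 there was 1 lower on day 3 and 1 higher on day 5 by edgeR, and DESeq2 called 0 on both days. On day 7, 6 were called higher and 8 lower (24.6% and 24%). PSMC4 was higher, at 32.4 and 32.9 FPKM with NaHCO3 and 24.3 and 23.6 FPKM with IWP2 alone, and PSMD10 was lower, at 19.0 and 21.9 FPKM with NaHCO3 and 32.9 and 31.1 FPKM with IWP2 alone. The count of 14 was 5 without the first IWP2 library, 9 without the second, and 7 without the second library with NaHCO3. On day 11, 17 were called higher and 0 lower (26.1% and 23.9%). PSMC2 had 33.07 and 33.05 FPKM with NaHCO3 and 23.99 and 23.95 FPKM with IWP2 alone (0.53 ± 0.08). That count was 11 without the second IWP2 library of day 11.

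**Figure D4:**
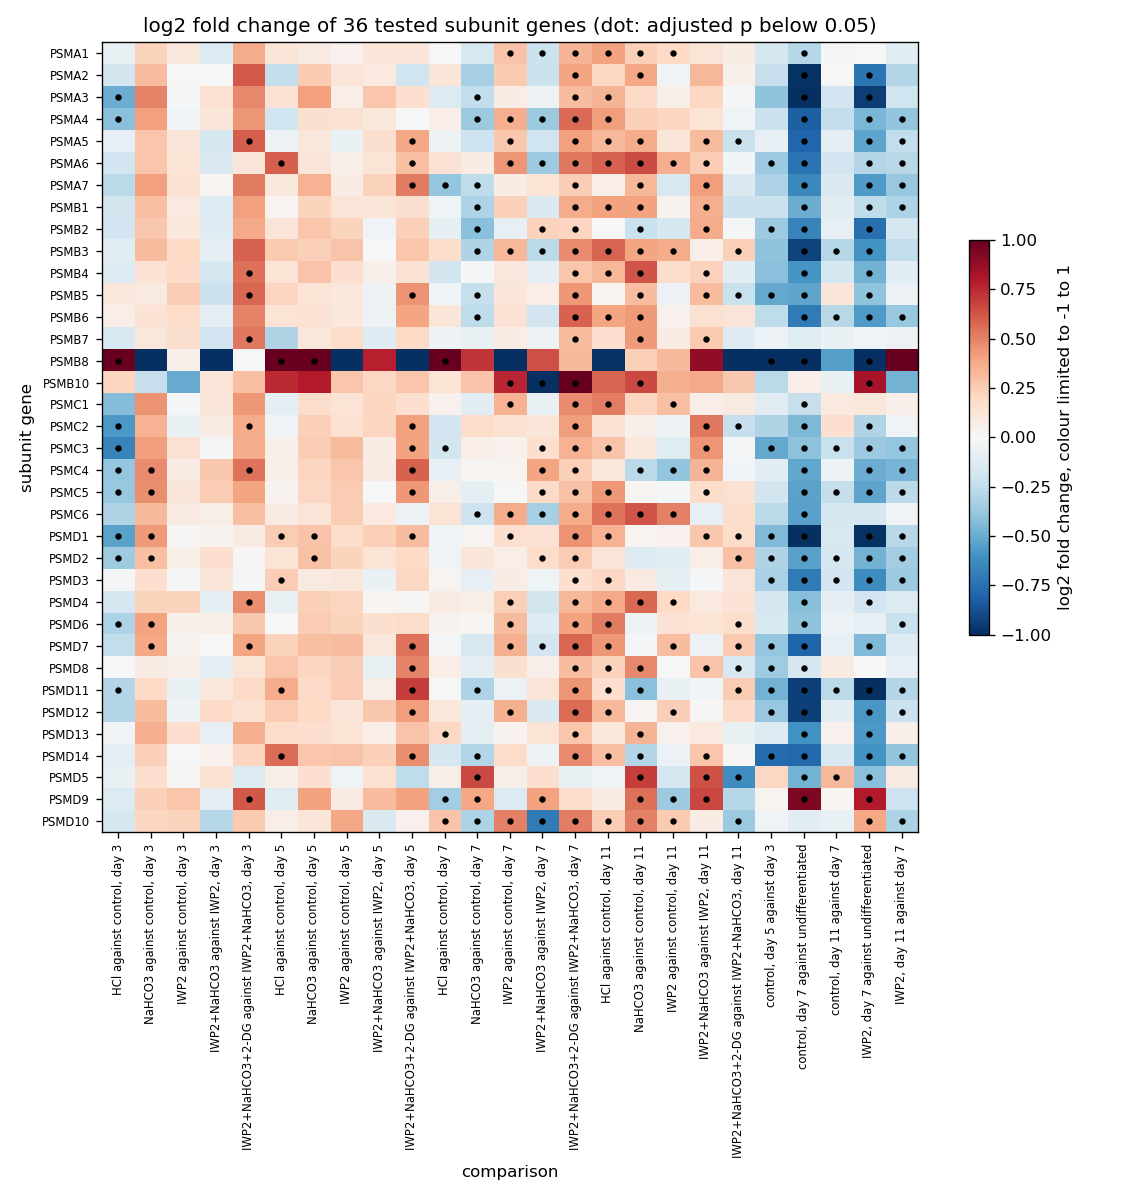
Log2 fold change (colour, limited to -1 and 1) of the 36 tested subunit genes (rows, by role) in 20 treatment and 5 day comparisons (columns), with a dot where the gene was called. The column for the day 7 control against undifferentiated cells is blue but for PSMD9 and PSMB10, and that for 2-DG on day 7 is red with 33 dots.

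The immunoproteasome gene PSMB8 (chromosome 6, 32808494 to 32812480, GRCh37), the inducible counterpart of PSMB5, had 2.93 and 3.31 FPKM in undifferentiated cells. With HCl it had 1.22 and 1.75 FPKM on day 3, 2.45 and 1.89 FPKM on day 5 and 2.61 and 1.7 FPKM on day 7, and 0.00 and 0.09 FPKM on day 11. In the control it had 0.33 and 0.94, 0.18 and 0.26, 0.20 and 0.10, and 0.10 and 0.08 FPKM on the same days. The HCl libraries lay above the control on days 3, 5 and 7 and did not overlap with it. PSMB8 reached 1 FPKM only in these HCl groups, undifferentiated cells and 1 NaHCO3 library of day 5, and so passed the filter through the groups where it is high. Its folds are therefore a description: 1.36 ± 0.42 on day 3, 3.36 ± 0.47 on day 5 and 3.92 ± 0.52 on day 7 (log2, SE, n = 2 each). The day 3 value was 0.74 without the first control library, 2.25 without the second and 1.08 without the second HCl library. Counts of members called include PSMB8 where it passed the test.

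NaHCO3 on day 5 was the other treatment with more PSMB8, at 0.88 and 1.16 FPKM with NaHCO3 and 0.18 and 0.26 FPKM in the control (2.27 ± 0.49, a description likewise). PSMB9 lies beside it (chromosome 6, 32811913 to 32827362), overlaps it and TAP1, and stayed under 1 FPKM. Its highest values were 0.82 and 0.81 FPKM with 2-DG on day 11 (45 and 35 counts), against 0.06 and 0.02 FPKM without 2-DG (4 and 1 counts). With HCl it had 21 and 18 counts on day 5, against 1 and 0 in the control. Since strand use in counting is not stated, reads of these overlapping genes cannot be told apart.

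TAP1, the peptide transporter gene next to PSMB9, had 3.38 and 3.42 FPKM with HCl on day 5, against 0.08 and 0.12 FPKM in the control. With 2-DG on day 11 it had 1.77 and 1.38 FPKM, against 0.07 and 0.09 FPKM without. B2M, the light chain of class I molecules, had 141 and 139 FPKM with NaHCO3 on day 11 and 54.6 and 60.8 FPKM in the control. Of the 7 tested interferon and peptide loading genes, 6 were called higher with HCl on day 5 and 5 with NaHCO3 on day 5, where 20.7% and 7.72% of all genes were called higher. For TAP1 the HCl libraries of day 5 alone met the filter, so a gene could enter through a group where it is high. These counts are therefore a description. The 8 immune cell markers summed to between 0.64 and 13.8 FPKM in every library, with CD3E at 0 counts in both HCl libraries of days 3 and 7. On day 5 with HCl they summed to 2.95 and 1.92 FPKM, against 7.21 and 7.04 FPKM in the control.

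**Figure D5:**
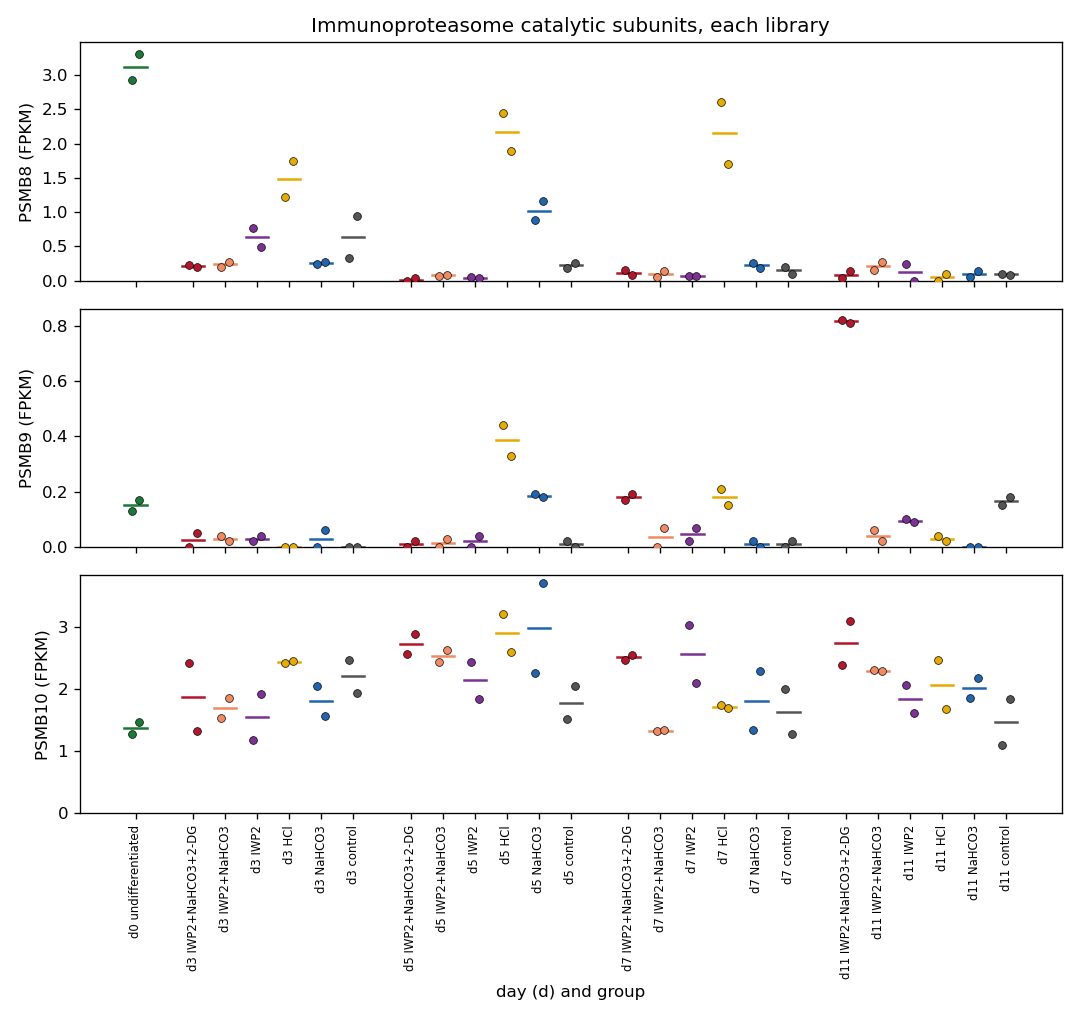
FPKM of PSMB8, PSMB9 and PSMB10 (y axes) in each library (points) by day and group (x axis), with group means as lines. PSMB8 is above 1 FPKM in undifferentiated cells, with HCl on days 3, 5 and 7 and in 1 of the 2 NaHCO3 libraries of day 5, while PSMB10 lies between 1.10 and 3.70 FPKM in all groups.

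Promoters of 34 of the 39 members were found in the RefSeq table (GRCh38.p14), as 41 windows of 250 bases before to 50 after a start site, and 16 short motifs were searched on both strands. The windows of 4 genes are shown because they hold the interferon repeat (GAAA, any 2 bases, GAAA), at the genes PSMB8 and PSMB10, or the core TGACNNNGC that NFE2L1 and related factors bind, at PSMC4 and PSMD1. These 4 were picked after the matches were seen. Capitals mark the match. PSMB8 (chr6:32843998-32844297, minus strand), PSMB10 (chr16:67936801-67937100, minus strand), PSMC4 (chr19:39970915-39971214, plus strand) and PSMD1 (chr2:231056617-231056916, plus strand) read as follows, with the PSMB8 and PSMC4 matches on the opposite strand.
PSMB8: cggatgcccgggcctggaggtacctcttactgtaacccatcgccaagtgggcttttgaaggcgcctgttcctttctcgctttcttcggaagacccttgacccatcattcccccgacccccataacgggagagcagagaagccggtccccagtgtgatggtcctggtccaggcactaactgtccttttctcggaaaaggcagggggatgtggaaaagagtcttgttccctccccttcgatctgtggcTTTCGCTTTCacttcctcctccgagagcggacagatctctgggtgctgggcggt
PSMB10: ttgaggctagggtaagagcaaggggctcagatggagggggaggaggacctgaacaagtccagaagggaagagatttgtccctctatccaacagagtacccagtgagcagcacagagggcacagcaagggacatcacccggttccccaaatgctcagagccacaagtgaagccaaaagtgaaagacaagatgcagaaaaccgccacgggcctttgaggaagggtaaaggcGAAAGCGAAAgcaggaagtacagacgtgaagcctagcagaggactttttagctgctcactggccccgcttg
PSMC4: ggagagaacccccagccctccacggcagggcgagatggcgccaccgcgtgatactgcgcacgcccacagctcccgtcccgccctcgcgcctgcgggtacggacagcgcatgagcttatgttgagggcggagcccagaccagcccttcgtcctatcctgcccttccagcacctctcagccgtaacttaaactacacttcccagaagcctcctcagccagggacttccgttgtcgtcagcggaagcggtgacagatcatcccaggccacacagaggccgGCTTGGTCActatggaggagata
PSMD1: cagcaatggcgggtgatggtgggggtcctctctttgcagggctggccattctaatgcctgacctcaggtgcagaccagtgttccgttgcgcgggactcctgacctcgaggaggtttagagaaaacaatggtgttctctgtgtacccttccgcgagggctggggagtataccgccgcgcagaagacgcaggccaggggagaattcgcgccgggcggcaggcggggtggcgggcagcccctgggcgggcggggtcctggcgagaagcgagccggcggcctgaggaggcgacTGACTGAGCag

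The interferon repeat was in 9.76% of the 41 windows (PSMA4, PSMB4, PSMB8 and PSMB10) and in 3.57% of all 35116 windows. TGACNNNGC was in 24.4% of the members' windows and 13.3% of all, and its variant TGAGNNNGC in 29.3% and 18.3%. CGGAAG, the ETS core, was in 58.5% and 19.5%, GGGCGG, the GC box, in 65.9% and 45.0%, and CCAAT in 43.9% and 34.6%. The nuclear respiratory factor site, GCGCA and GCGC around any base, was in 17.1% and 5.78%, TTCNNNGAA in 17.1% and 7.66%, TGACTCA in 7.32% and 4.95% and TATAAA in 12.2% and 11.5%. TGACGT was in 7.32% and 7.98% and TTCNNGAA in 7.32% and 7.74%. GAANNTTC, TGACGTCA, the NF-kappa B site (GGGGA and TCCC around any base) and TTCCNGGAA were in 0 of the members' windows and in 6.77%, 1.85%, 0.424% and 1.15% of all. Some motifs overlap by construction, TGACGT lying within TGACGTCA and TTCCNGGAA within TTCNNNGAA, and several members have more than 1 window.

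The 3 assembly chaperones help to place subunits of the 19S base. PSMD5 had 18.8 and 19.0 FPKM with NaHCO3 on day 7, against 13.8 and 12.2 FPKM in the control (0.66 ± 0.10), when 12 other members fell. On day 11 it had 22.1 and 21.7 FPKM with NaHCO3 and 15.9 and 15.2 FPKM in the control (0.70 ± 0.10). With 2-DG on day 11 it had 10.2 and 15.7 FPKM, against 19.2 and 20.9 FPKM without (-0.62 ± 0.10), and the 2-DG libraries were far apart. PSMD5 overlaps PSMD5-AS1 on the opposite strand, and PSMD9 overlaps WDR66 on its own strand. PSMD9 was at its lowest in undifferentiated cells. PSMD10 (gankyrin) was highest with IWP2 on day 7.

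Genes around the proteasome were counted from lists. NFE2L1 had 92.4 and 92.8 FPKM with 2-DG on day 5, against 38.4 and 40.2 FPKM without (1.41 ± 0.11). The list of its pathway held 5 genes: NFE2L1 itself, the related factor NFE2L2, and NGLY1, SYVN1 and DDI2. All but DDI2 were called higher with 2-DG on day 5, where 20% of all genes were called higher. On day 7, when 33 members rose with 2-DG, 1 of the 5 was called higher (NGLY1, which activates NFE2L1 by removing sugars) and 1 lower (SYVN1), and NFE2L1 had 43.6 and 43.5 FPKM with 2-DG and 44.2 and 43.4 FPKM without. NFE2L1 was called higher with HCl on day 11 (0.61 ± 0.07), when 23 members rose, and on day 5 (0.63 ± 0.11), when 6 rose. It was called lower in the day 7 control against undifferentiated cells (-0.66 ± 0.07), when most members fell. Higher calls also came with HCl on day 3 (0.33 ± 0.11), when 10 fell, and with 2-DG on day 11 (0.73 ± 0.07), when 6 rose and 6 fell. In IWP2 cultures NFE2L1 was higher on day 11 than on day 7 (0.75 ± 0.07), when 17 members fell. With NaHCO3 added to IWP2 on day 11 it was called lower (-0.65 ± 0.07), when 17 members rose. NFE2L1 was also called higher on day 7 with NaHCO3 (0.29 ± 0.07) and with NaHCO3 added to IWP2 (0.30 ± 0.07). It was higher in the control of day 11 against day 7 (0.37 ± 0.07). In each of these more members were called lower than higher. It was called higher with IWP2 on day 11 (0.50 ± 0.07), when more members rose than fell. In IWP2 cultures of day 7 against undifferentiated cells it was called lower (-0.54 ± 0.07), when most members fell. The part of NFE2L1 in the subunit levels was not tested. POMP, which assembles the 20S core, was called higher with 2-DG on day 7 (0.69 ± 0.17). PSME1, of the activator that caps the immunoproteasome, had 30.5 and 30.7 FPKM with 2-DG on day 7 and 20.8 and 21.5 FPKM without (0.61 ± 0.12), and PSME2, its partner, was called too (0.26 ± 0.09). With IWP2 alone on day 7 PSME1 had 37.79 and 37.04 FPKM. On day 5 PSME1 was called lower with 2-DG, at 16.65 and 13.73 FPKM, against 27.13 and 25.43 FPKM without (-0.62 ± 0.17). Ligases that tag muscle proteins for the proteasome were called higher in all 6 tested genes with IWP2 and with 2-DG on days 7 and 11 and with HCl on day 11, and in 3 of 6 with HCl on day 7, where between 22.1% and 25.3% of all genes were called higher. All 6 were called lower with NaHCO3 on day 11 and with NaHCO3 added to IWP2 on days 7 and 11, and 3 of 6 with NaHCO3 on day 7, where between 20% and 26.5% were called lower. Heart muscle markers lay in the same direction, with sums of 5873 and 5370 FPKM with 2-DG on day 11 and 335 and 350 FPKM without it, and their part was not tested. With 2-DG on day 7, 6 of 12 proteasome-associated receptors, ubiquitin hydrolases and shuttles were called higher and 1 lower, 2 of 9 ubiquitin, E1 and p97 genes higher and 1 lower, 1 of 6 other assembly chaperones higher and 0 lower, and 2 of 5 activators and inhibitor genes higher and 0 lower, where 25% and 22.7% of all genes were called. In the day 7 control against undifferentiated cells the counts for the same lists were 1 higher and 9 lower, 0 and 7, 0 and 4, and 0 and 3, where 33.2% and 34.4% of all genes were called. PSMG4, a chaperone of 20S assembly, had the lowest log2 fold change of the assembly list there (-1.41).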

How the data were processed

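RNA of H1 cells was extracted with RNAiso Plus and made into libraries with the VAHTS Universal V8 kit, per the labels' protocols. The deposited tables hold raw counts and FPKM per Ensembl gene on GRCh37, one table for days 3 and 5 (24 libraries) and one for days 0, 7 and 11 (26 libraries). The authors' tools were HTSeq 0.6.1, HISAT2 2.0.1 and cutadapt 1.9.1, per the submitters' processing notes, and the strand setting is not given in the sources used here. The FPKM deposited by the authors matched values recomputed from the counts (ratio 1.0).

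Counts were tested with edgeR 4.0.16 in R 4.3.3 (TMM, robust quasi-likelihood test), within each table, with all its libraries sharing 1 estimate of spread and Benjamini-Hochberg adjustment over the 17286 and 18451 genes that reached 1 FPKM in 2 or more libraries. DESeq2 1.42.0, other size factors, no filter, the days compared alone, a replicate block, leaving out each library and leaving out both 2-DG libraries of day 3 were tried. On simulated data for HCl on day 3 (17286 genes) the test called 4%, 20%, 66% and 88% of genes changed 1.2, 1.4, 1.7 and 2-fold, and for 2-DG on day 7 (18451 genes) 8%, 80%, 98% and 100%. The changed genes were drawn only from genes with many counts. These rates therefore do not cover members with few counts, such as PSMB8 and PSMB10. Named were the catalytic and tissue-limited subunits, the members with the highest and lowest mean, up to 3 called members with the largest rise and 3 with the largest fall per comparison, up to 4 called genes of each other list, and NFE2L1, PSME1, PSME2, POMP, TAP1 and B2M. A few others were named after their values were seen. Members and lists were chosen with earlier results of these data known.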

Additional observations from a re-analysis of the deposited data

Results flagged for a closer look

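The effect of HCl differed between days by an interaction test for 10 subunits between days 5 and 3, with 10 higher and 0 lower on day 5 (14% and 13.8% of all genes). PSMB8, among the higher, passed the filter on days 3 and 5 only through HCl and 1 NaHCO3 library. Its call was lost in 4 of 13 alternatives, and nothing is read from it. Between days 11 and 7 the HCl effect differed for 19 subunits, with 18 higher and 1 lower on day 11 (19.4% and 21.9% of all genes). The lower one, PSMB8, passed the filter only through HCl on day 7 and undifferentiated cells, so nothing is read from it. The effect of IWP2 differed between days 11 and 7 for 1 subunit, PSMC4, at -0.42 ± 0.11 on the log2 scale (adjusted p = 0.00578 by edgeR), where 5.41% and 9.98% of all genes were called higher and lower, so 1 of 36 is no more than the background.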

How the results depend on the processing

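With both 2-DG libraries of day 3 left out, the members called numbered 20 for HCl, 23 for NaHCO3, 2 for IWP2 and 6 for NaHCO3 with IWP2 on day 3, and 15, 21, 17 and 7 on day 5, with 23 for 2-DG on day 5. They numbered 25 for the control of day 5 against day 3, 23 for the HCl interaction and 2 for the IWP2 interaction of these days. With the days compared fitted alone the counts were 4 for HCl, 0 for NaHCO3 and 0 for 2-DG on day 3. On day 5 they were 16 for HCl, 20 for NaHCO3, 17 for IWP2, 7 for NaHCO3 with IWP2 and 23 for 2-DG, and 9 for NaHCO3 on day 7. With no filter 2-DG on day 3 gave 17, and DESeq2 gave 3 for IWP2 on day 5. The cause was not tested.

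Leaving out 1 library gave between 4 and 5 members for HCl, 1 and 2 for NaHCO3, and 0 and 29 for 2-DG on day 3; between 4 and 4 for HCl, 0 and 2 for NaHCO3 and 6 and 9 for 2-DG on day 5. On day 7 it gave between 2 and 4 for HCl, 7 and 22 for NaHCO3, 8 and 10 for IWP2, 5 and 10 for NaHCO3 with IWP2, and 26 and 30 for 2-DG. On day 11 it gave between 16 and 25 for HCl, 18 and 21 for NaHCO3, 6 and 11 for IWP2, 11 and 18 for NaHCO3 with IWP2, and 5 and 9 for 2-DG. The control gave between 5 and 9 (day 5 against 3), 31 and 32 (day 7 against undifferentiated) and 1 and 10 (day 11 against 7), and IWP2 between 26 and 30 and between 12 and 18. The HCl interactions gave between 6 and 9 and between 13 and 21, and those of IWP2 between 0 and 1 and between 1 and 1.

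Other size factors kept all 29 counts within 1.5 times. Of 112 named values, 42 lost a call under some alternative and 0 reversed. Same-numbered libraries did not deviate together, with correlations between -0.059 and 0.07 over 25 comparisons, and the main fit did not pair them. These correlations cannot tell whether same-numbered libraries shared a culture or run, which the labels do not state. A replicate block gave 10 members for HCl on day 3 and 33 for 2-DG on day 7, and 1 of 112 named calls was lost. Depth limits the members with few counts. These are PSMB11, PSMA8 and PSMB9, which were not tested, and the tested PSMB8 and PSMB10. PSMB8 had at most 115 counts in a library and PSMB10 at most 124.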
